A study of Mus musculus with 24 samples.

Results

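The 10 genes described here are targets of the transcription factor p53 that stop the cell cycle or act back on p53 and the signals around it. They were chosen by name, with earlier results of these data known: *Cdkn1a*, *Ccng1*, *Mdm2*, *Phlda3*, *Trp53inp1*, *Sesn2*, *Zmat3*, *Aen*, *Eda2r* and *Rps27l*. Every probe whose gene name in the scanner output was one of these was taken, which gave 15 of 39429 probes and 10 of 29742 gene names, and 8 of the 10 genes were among the 17802 genes tested after the filters on dim and invariant probes. Their blood transcripts were measured in 24 male C57BL/6J mice, 1 mouse per single-dye (Cy3) Agilent array, to ask how radiation changed them 24 h later and whether age altered that change. The 4 groups of 6 mice were young unirradiated, young irradiated, old unirradiated and old irradiated, where young mice were 2 months old, old mice were 21 months old, and irradiated mice received 4 Gy of x-rays to the whole body. Whole blood was lysed directly, and globin RNA was removed before labeling, so that each value is a mixture over all blood cells; fewer cells of a type and less RNA per cell cannot be told apart.

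Damaged DNA activates the kinases that free p53 from its inhibitor Mdm2, and the stabilized p53 then switches on a shared set of genes in almost every cell type. *Cdkn1a* encodes p21, which binds cyclin-dependent kinases and holds the cell cycle, while *Mdm2* encodes the ubiquitin ligase that destroys p53 and so closes a negative feedback loop. Blood responds strongly because lymphocytes are among the most radiosensitive cells of the body, and transcripts of this set are widely used as markers of exposure. *Aen* and *Eda2r* are better known for cell death than for arrest, and they stand here as direct targets of p53.

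All levels are log2 signals relative to the median spot of the same array, and differences between groups are on the log2 scale. A gene was called changed at a p below 0.005 together with an adjusted p below 0.05 in limma's moderated test over all 17802 genes. The array median signal ran from 8.66 to 44.8 units, 43.9 to 64.4% of spots were well above background, and no probe of the 10 genes was saturated on any array. Both arrays of a pair were closer to each other than usual in young irradiated mice 2 and 5 (spread of log2 differences 0.121 over 5996 bright probes) and in old unirradiated mice 1 and 6 (0.127), where the other 58 of 60 pairs within groups gave 0.169 to 1.89 and repeat spots on 1 array gave 0.0601 to 0.102. They were kept as separate mice, and counts with each pair taken as 1 sample are also given. Old irradiated mice 4 and 6 had the lowest signal and differed from the other 4 mice of their group, and the mean level of liver markers was high in old irradiated mice 2, 3 and 5 (8.25 to 9.04) and in young irradiated mice 2, 4 and 5 (8.68 to 9.74), so results are also given without them where they differ. Young mice were all scanned on 1 day and old mice on another, so that age and scan day cannot be told apart.

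The promoters of these genes were searched for the p53 motif; since the genes were chosen as p53 targets, its presence is not independent of that choice. p53 binds as a tetramer to a pair of adjacent decamers, and the decamer, which is its own reverse complement, was searched in the 300 bases from 250 before to 50 after each RefSeq gene start (GRCm38.p6). RefSeq windows were found for 8 of the 10 genes, in 11 windows. The p53 decamer was present in 5 of the 8 genes, against 9.55% of all 27025 genes with a window, and in 6 of the 11 windows (of which 2, overlapping windows of *Aen*, hold the same match), against 8.36% of all 32851 windows. A match to the core of a full site, CATG on both sides of 6 further bases (also its own reverse complement, and overlapping the decamer), was present in 1 window of the set, that of *Cdkn1a*, against 0.712% of all windows. A match is a description of the sequence, not a site or a cause, and where there is none it says only that these letters are not in this window. The stretches below are shown 5′ to 3′ on the strand of the gene, with the match in capitals, for genes of the set that rose in both ages.
Cdkn1a, chr17:29090908-29090967, plus strand: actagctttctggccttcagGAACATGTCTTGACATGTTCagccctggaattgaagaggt
Mdm2, chr10:117710915-117710964, minus strand: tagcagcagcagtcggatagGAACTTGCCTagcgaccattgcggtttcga
Ccng1, chr11:40755442-40755491, minus strand: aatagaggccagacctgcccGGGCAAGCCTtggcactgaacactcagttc
In *Cdkn1a* the capitals begin 51 bases before the upstream of its 2 RefSeq starts and hold 1 decamer followed directly by the 10 bases that complete the double core, and a second decamer, not shown whole, begins 73 bases before that start; *Mdm2* (186 bases before its start) and *Ccng1* (185) show a single decamer. *Aen* and *Rps27l* also held the decamer, the windows of *Phlda3*, *Sesn2* and *Eda2r* held none, and *Zmat3* and *Trp53inp1* were not searched.

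Most tested genes of this set rose after irradiation in both ages. The set was chosen as p53 targets with earlier results of these data known. Its counts beside all genes are therefore a description and not an independent test. In young mice, 7 of the 8 genes tested rose and 0 fell, against 14.3% of all genes called higher and 21.1% called lower (35.4% together). In old mice 5 of 8 rose and 0 fell, against 7.49% called higher and 17.4% called lower (24.9%). With each very similar pair counted as 1 sample the counts were 7 and 6. Without old irradiated mice 4 and 6, 7 of 8 rose in old mice (*Trp53inp1* and *Zmat3* in addition), and without mice 2, 3 and 5 the count was 5. Without young irradiated mice 2, 4 and 5 all 8 rose in young mice, *Trp53inp1* in addition. The share of all genes called without these mice is not given here. The median difference over the 8 genes was 1.5 in young and 1.12 in old mice, where the median over all genes tested was -0.20 and -0.25. *Cdkn1a*, *Phlda3*, *Ccng1*, *Aen* and *Mdm2* rose in both ages, a pattern shared by 5.19% of all genes, whereas *Zmat3* and *Rps27l* passed the main test in young mice alone. The interaction test called neither gene, so this does not by itself show that the ages differ. Over 18 alternative settings (of processing or of mice left out), *Rps27l* stayed uncalled in old mice in all 18. *Trp53inp1* stayed uncalled there in 14 and *Zmat3* in only 10. Irradiated mice lay wholly above unirradiated mice for 7 genes in the young, against 9.45% of all genes, and for 5 genes in the old, against 5.83%. The same young and old unirradiated mice serve in the age comparisons below, so those comparisons are not independent of these.

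**Figure D1:**
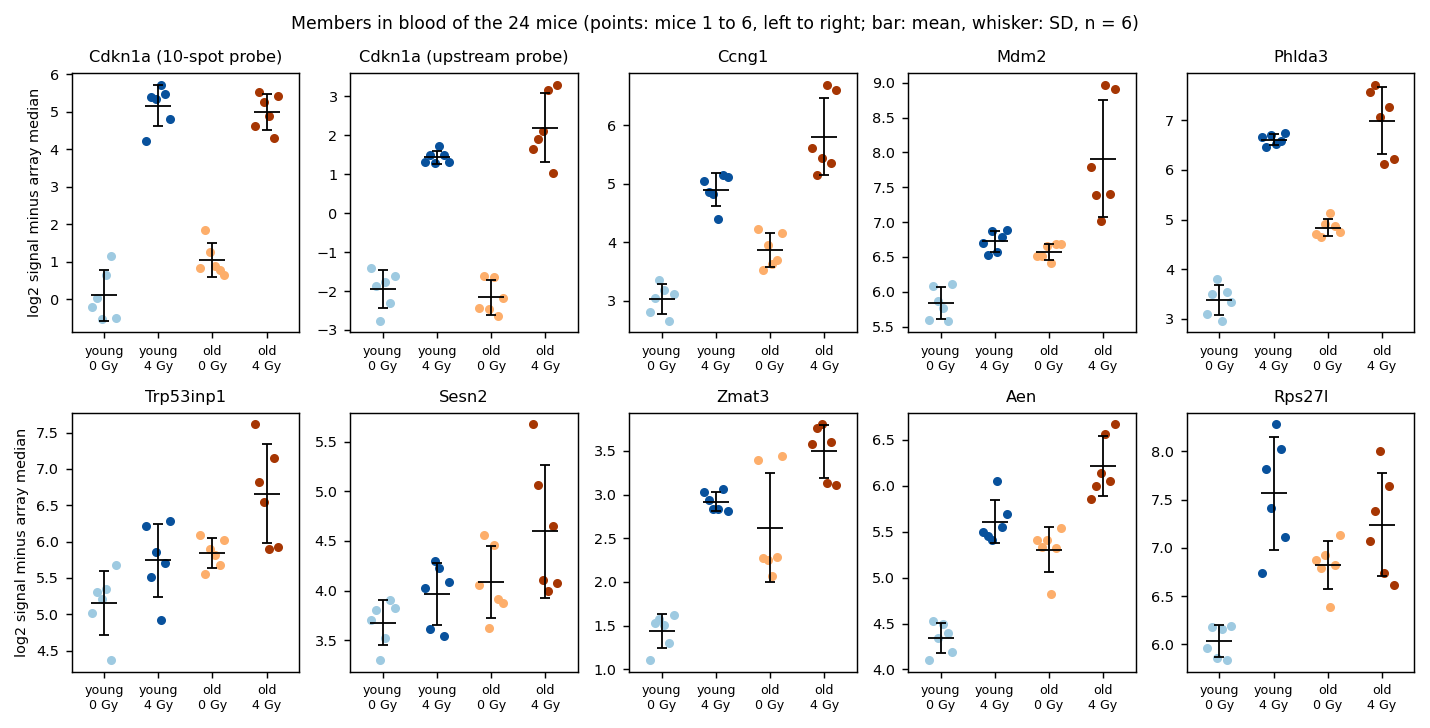
Log2 level relative to the array median (vertical axis, its own range in each panel) of the 8 tested genes, of *Sesn2* and of the upstream *Cdkn1a* probe in each of the 24 mice, by group; points are mice, and bars and whiskers are the mean and SD of 6 mice. In *Cdkn1a*, *Phlda3*, *Ccng1*, *Aen* and *Mdm2* the irradiated mice of each age lie above all unirradiated mice of that age.

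*Cdkn1a* showed the greatest rise of the set in both ages. In young unirradiated mice its level ran from -0.53 to 1.16 with a median of -0.08, and in young irradiated mice from 4.23 to 5.71 with a median of 5.38. The groups were far apart, with a difference of 5.06 (SE 0.33), or 33.4-fold (limma adjusted p = 5.56e-07; two-sided exact permutation test of 6 against 6 mice p = 0.00216, the smallest it can give). In old unirradiated mice it ran from 0.64 to 1.85 with a median of 0.86, and in old irradiated mice from 4.31 to 5.54 with a median of 5.07. The old groups were likewise apart, by 3.96 (SE 0.29), or 15.5-fold (limma adjusted p = 1.52e-05). Under normexp background correction the differences were 3.36 (10.2-fold) and 2.60 (6.08-fold), and both were called. The starting level of young mice was the least certain of these values, since the probe was well above background in 5 of the 6 young unirradiated mice and in all 6 mice of the other groups. On the scale of probes above background on all arrays, young irradiated mice 2, 4 and 5, with high liver markers, gave its highest levels (1.47, 1.68 and 1.41 against 0.14 to 1.29). Without them the rise was still called. Old irradiated mice 2, 3 and 5 were not set apart (1.08, 0.88 and -0.14 against 0.06 to 1.33). Young unirradiated mouse 5, highest in *Cdkn1a*, also had the highest liver markers of its group (5.79). The part of liver transcripts was not tested.

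The array carried 3 probes for *Cdkn1a*, and all of them lie on mm9 chromosome 17 in the order of the gene. The probe just described is printed at 10 spots and lies furthest downstream, at chr17:29237377-29237436, and its first 30 bases are given to fix which end of the transcript was read.
Cdkn1a downstream probe: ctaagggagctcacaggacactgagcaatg
Cdkn1a upstream probe: aatggagacagagaccccagataattaagg
The upstream probe, at chr17:29227986-29228045, stood well above background in all 6 irradiated mice of each age and in 0 of the 6 unirradiated ones. Its level went from between -2.76 and -1.42 to between 1.28 and 1.72 in young mice, and from between -2.65 and -1.62 to between 1.04 and 3.29 in old mice. With the unirradiated mice held at the lowest signal that stood above background, it was at least 5.13-fold higher after irradiation in young mice (measured means -1.95 and 1.44) and at least 8.0-fold higher in old mice (-2.17 and 2.20). The third probe, at chr17:29235299-29235358, was well above background only in 3 of 6 old irradiated mice and was dropped by the filter on dim probes.

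*Ccng1* encodes cyclin G1, which brings a protein phosphatase to Mdm2. It lay between 2.66 and 3.36 in young unirradiated mice (median 3.08) and between 4.41 and 5.16 in young irradiated mice (median 4.95). In old mice it lay between 3.52 and 4.22 without irradiation (median 3.83) and between 5.15 and 6.69 after it (median 5.53). Neither pair of groups overlapped, and with all mice the rise was of like size in both ages, 1.87 (SE 0.17, limma adjusted p = 5.90e-06) in young and 1.94 (SE 0.31, adjusted p = 0.00103) in old mice. The old value was 1.53 without old irradiated mice 4 and 6 and 2.43 without mice 2, 3 and 5. The probe is at mm9 chr11:40562427-40562486.

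*Mdm2* closes the feedback loop on p53. Its level ran from 5.59 to 6.11 in young unirradiated mice (median 5.82) and from 6.53 to 6.88 in young irradiated mice (median 6.75), with no overlap. In old mice it ran from 6.41 to 6.69 (median 6.59) without irradiation. The 6 old irradiated mice gave 7.80, 7.38, 7.01, 8.97, 7.40 and 8.92 in the order of their numbers, all above the unirradiated mice, with mice 4 and 6 well above the rest. The rise was 0.89 (SE 0.14; limma adjusted p = 0.000289) in young and 1.33 (SE 0.35; adjusted p = 0.0108) in old mice, and the old value was 0.82 (adjusted p = 0.00314) without mice 4 and 6 and 1.98 (adjusted p = 0.000926) without mice 2, 3 and 5. In young mice *Mdm2* kept its call in 13 of 16 alternative settings, at 0.64 to 1.28 over them, and in old mice in 15 of 17. The probe is at mm9 chr10:117126010-117126069.

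*Phlda3* encodes a small lipid-binding protein that competes with the kinase Akt at the membrane and so dampens a survival signal. It separated the young groups with little spread, from 2.96 to 3.79 (median 3.42) without irradiation and from 6.46 to 6.75 (median 6.62) after it. In old mice it ran from 4.64 to 5.13 (median 4.81) and from 6.12 to 7.71 (median 7.16). The rise was 3.24 (SE 0.15; limma adjusted p = 1.11e-07) in young mice, the third-lowest p of all genes tested, and 2.15 (SE 0.31; adjusted p = 0.000542) in old mice. In old irradiated mice the order was turned round from that of *Mdm2*, since mice 4 and 6 were lowest, at 6.12 and 6.22, and the other 4 lay between 7.06 and 7.71. Its probe is at mm9 chr1:137665642-137665701.

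*Trp53inp1* encodes a nuclear protein that promotes the activating phosphorylation of p53. Its brighter probe, at mm9 chr4:11101174-11101233, overlapped between treatments in both ages, from 4.37 to 5.68 and 4.92 to 6.28 in young mice and from 5.55 to 6.10 and 5.90 to 7.61 in old mice. The differences of 0.59 (SE 0.26; limma adjusted p = 0.0801) and 0.82 (SE 0.31; adjusted p = 0.0546) did not pass the test. The 95% intervals, 0.03 to 1.15 and 0.15 to 1.48, still leave room for a rise of more than 2-fold in both ages. Its dimmer probe, at chr4:11092530-11092589, showed differences of 0.73 (adjusted p = 0.00814 over 24130 probes) in young mice, which was called, and 0.76 (adjusted p = 0.0319) in old mice, which was not. Without old irradiated mice 4 and 6 the brighter probe passed the test in old mice, at 1.19 (adjusted p = 0.00155).

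*Zmat3* encodes a zinc finger protein that binds RNA. In young mice it went from between 1.11 and 1.62 (median 1.52) to between 2.82 and 3.07 (median 2.89), a rise of 1.48 (SE 0.13; limma adjusted p = 4.95e-06). In old unirradiated mice 4 values lay between 2.07 and 2.29, but mice 1 and 6, the pair of very similar arrays, gave 3.39 and 3.44. These 2 values overlapped the 3.11 to 3.80 of the old irradiated mice, and the difference of 0.88 (SE 0.30; limma p = 0.0125, adjusted p = 0.0393; exact permutation p = 0.0216) missed the threshold on p. It was called at 1.04 (adjusted p = 0.0258) with that pair counted as 1 sample, at 1.03 without mouse 1, at 1.04 without mouse 6 and at 1.07 (adjusted p = 0.0130) without old irradiated mice 4 and 6. Over the 18 alternative settings the difference in old mice ran from 0.65 to 1.22 and stayed uncalled in 10. The probe is at mm9 chr3:32233831-32233890.

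*Aen* encodes a nuclease that p53 induces during cell death, and its 2 probes overlap on mm9 chromosome 7. The brighter probe, at chr7:86053207-86053266, ran from 4.10 to 4.53 (median 4.37) and from 5.41 to 6.05 (median 5.52) in young mice, and from 4.82 to 5.54 (median 5.37) and from 5.86 to 6.67 (median 6.09) in old mice. No groups of 1 age overlapped. The rise was 1.27 (SE 0.15; limma adjusted p = 3.14e-05) in young and 0.91 (SE 0.23; adjusted p = 0.00998) in old mice, and the other probe gave 1.21 and 0.92, a gap smaller than the SE.

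*Rps27l* encodes a close relative of ribosomal protein S27 that binds Mdm2, and its probe spans an intron (mm9 chr9:66795486-66797176). In young mice it ran from 5.84 to 6.20 (median 6.06) and from 6.74 to 8.28 (median 7.61), a rise of 1.53 (SE 0.24; limma adjusted p = 2.60e-04) with no overlap. Young irradiated mice 2, 4 and 5, in which liver markers were high, gave its highest levels (7.81, 8.28 and 8.02 against 6.74 to 7.41), and without them the rise was 1.05 (adjusted p = 0.00102). In old mice it ran from 6.38 to 7.13 (median 6.85) and from 6.61 to 8.0 (median 7.23), and these groups overlapped. The old difference of 0.42 (SE 0.28; adjusted p = 0.256) was not called (95% interval -0.18 to 1.01). It was -0.02 without old irradiated mice 2, 3 and 5, in which liver markers were high, and 0.70 (adjusted p = 0.0181), still not called, without mice 4 and 6. Its paralog *Rps27*, a component of the ribosome itself, fell by 1.13 in young (adjusted p = 0.000256) and 1.03 in old mice (adjusted p = 0.0132), so the 2 related transcripts moved in opposite directions in young mice.

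The remaining genes of the set were not tested among all genes. *Sesn2*, which restrains growth signaling under stress, was above background on all arrays but differed by 1.5-fold from its median in only 4 arrays, 1 fewer than required. It ran from 3.30 to 3.90 and from 3.55 to 4.29 in young mice, and from 3.63 to 4.56 and from 3.99 to 5.67 in old mice, with overlap in both ages. Without that filter the differences of 0.29 (limma adjusted p = 0.186) and 0.51 (adjusted p = 0.233) were not called. *Eda2r*, a receptor of the tumor necrosis factor receptor family, was well above background on 0 of 24 arrays with either of its 2 probes, so a change in it was not detectable at this signal.

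**Figure D2:**
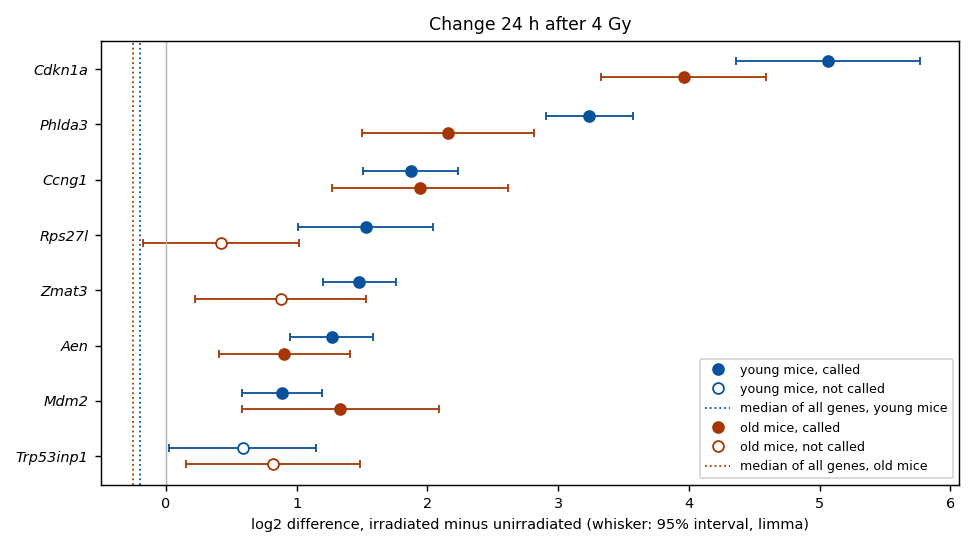
Log2 difference, irradiated minus unirradiated mice, with its 95% confidence interval for each of the 8 tested genes in young and in old mice (6 mice per group); filled points were called, and dotted lines mark the median of all genes. *Cdkn1a* (5.06 and 3.96) and *Phlda3* (3.24 and 2.15) lie furthest from 0, and the interval of *Rps27l* includes 0 in old mice.

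Relative to the median of all genes the radiation differences ran from 0.79 for *Trp53inp1* to 5.26 for *Cdkn1a* in young mice and from 0.67 for *Rps27l* to 4.21 for *Cdkn1a* in old mice. They were also positive for all genes tested in both ages under each of the 6 other scalings and background corrections tried, where *Mdm2* did not enter the test under quantile normalization. Background correction by normexp lowered the number of called genes to 4 in young mice (*Cdkn1a*, *Phlda3*, *Ccng1* and *Zmat3*) and to 1 in old mice (*Cdkn1a*), where it called 837 and 8 of 11800 genes in all. The differences of the genes that lost the call were not smaller under it: *Rps27l* (1.97), *Aen* (1.51) and *Mdm2* (1.28) in young mice, and *Phlda3* (2.45), *Ccng1* (2.01), *Mdm2* (1.86) and *Aen* (1.38) in old mice. Only 1 slide of each age held both treatments, and on the other slides treatment and slide cannot be told apart. On that slide (2 mice against 2, no test), the differences were 4.48 and 4.37 for *Cdkn1a*, 3.12 and 2.83 for *Phlda3*, 2.06 and 1.45 for *Ccng1*, 0.77 and 0.90 for *Mdm2* and 1.18 and 0.50 for *Aen* in young and old mice. They were 1.52 and 0.80 for *Zmat3*, 1.26 and 0.25 for *Rps27l* and 0.83 and 1.37 for *Trp53inp1*, so each kept its sign there.

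Markers of several blood cell types moved with irradiation, and their part in the rise of these genes was not tested. The 8 platelet markers all rose in both ages, and their mean level went from 7.85 to 8.69 up to 8.97 to 10.8 in young mice and from 8.99 to 9.93 up to 10.7 to 11.5 in old mice. Of the 10 B cell markers 10 fell in young and 9 in old mice, and of the 10 T cell markers 7 fell in young and 0 in old mice. Macrophage markers rose in young mice (9 of 9 tested, mean level from between 0.57 and 4.55 to between 5.28 and 7.11). In old mice 1 of 9 rose, and the mean level went from between 0.27 and 3.73 to between 0.47 and 6.58. Liver markers rose in old mice (6 of 7 tested) and spanned -0.42 to 9.04 there, and in young irradiated mice they spanned 0.16 to 9.74 with 0 of 7 called. These counts stand beside 14.3% of all genes called higher and 21.1% called lower in young mice, and 7.49% and 17.4% in old mice. The interaction test called 0 markers of these lists, so the counts do not by themselves show that the ages differ. No marker list was undetected in any group of blood: at least 2 of 12 liver markers, 4 of 7 endothelial markers and 8 of 10 B cell markers were well above background on every array.

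Before irradiation, 7 of the 8 genes (6 with each very similar pair counted as 1 sample) were higher in old than in young mice on the scale of the array median, but 48.4% of all genes were called higher there and the median over all genes was 0.63. *Phlda3* differed by 1.46 (SE 0.16; limma adjusted p = 8.32e-06), with all 6 old unirradiated mice (4.64 to 5.13) above all 6 young ones (2.96 to 3.79). *Zmat3* differed by 1.18 (SE 0.25; adjusted p = 0.000804), *Aen* by 0.96, *Ccng1* by 0.83, *Rps27l* by 0.79, *Mdm2* by 0.74 and *Trp53inp1* by 0.69, and of these *Trp53inp1* alone overlapped between ages. *Cdkn1a* differed by 0.94 (SE 0.30; limma p = 0.00763, adjusted p = 0.0114; exact permutation p = 0.0260) and was not called. It was called without young unirradiated mouse 5, the highest of its group, at 1.15, and stayed uncalled in 15 of 16 alternative settings. The call on *Trp53inp1* was lost when any of 8 of the 12 mice was left out, at 0.63 to 0.72 over those 8, and it was the weakest of the 7. The groups did not overlap for 6 of 8 genes, against 37.4% of all genes, and the share of the set has to be read beside these high shares for all genes.

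Relative to the median of all genes, the age differences before irradiation shrank to 0.06 for *Trp53inp1*, 0.11 for *Mdm2*, 0.16 for *Rps27l*, 0.21 for *Ccng1*, 0.31 for *Cdkn1a*, 0.33 for *Aen*, 0.55 for *Zmat3* and 0.83 for *Phlda3*. How many were called depended on how the arrays were scaled. *Phlda3* alone was called with the 75th percentile, with the median of probes above background on all arrays, with the median of the bright spots of each array taken separately, and in the log2 values the authors deposited. Quantile normalization called *Phlda3* and *Zmat3* of 7 genes tested, and normexp correction called 0 genes of the set and 0 of all 11800. The direction for *Mdm2* was not settled, since its difference was -0.01 in the deposited values, whereas that of *Phlda3* was between 0.68 and 1.55 under all alternatives. On the scale of the array median, neutrophil markers were also higher in old unirradiated mice (8 of 11 called), as were monocyte (5 of 6) and platelet markers (7 of 8). These counts stand beside 48.4% of all genes called higher on that scale. On the scale of probes above background on all arrays, the mean levels of platelet and neutrophil markers overlapped between ages and those of monocyte markers did not. The part of these markers in the age differences was not tested.

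**Figure D3:**
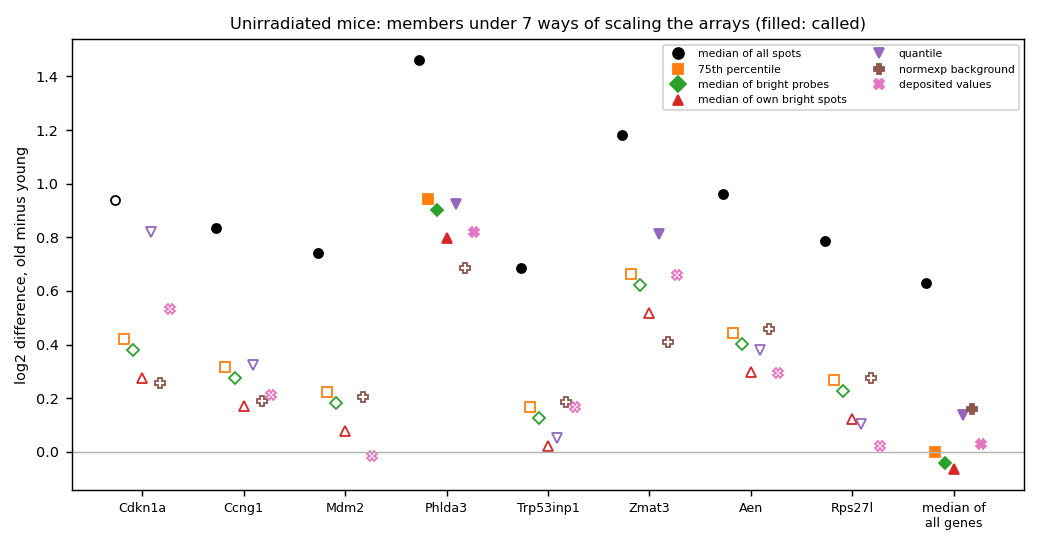
Log2 difference between old and young unirradiated mice (6 per group) for the 8 genes under each scaling of the arrays, with the median over all genes under the same scaling in the last column; filled symbols of genes were called, and the medians were not tested. On the scale of the array median all 8 genes lie between 0.69 and 1.46 and the median over all genes is 0.63; *Phlda3* lies above the other genes under each scaling.

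After irradiation the ages did not differ by a called amount in any of the 8 genes, with 0 called by limma and by the random variance test, against 2% of all genes called in either direction by limma. At an unadjusted limma p below 0.05 were 5 of the 8 genes, beside 3802 of all 17802 genes. *Mdm2* had the largest difference, 1.19 (SE 0.35; limma p = 0.00503, adjusted p = 0.0932; exact permutation p = 0.00216), and all 6 old irradiated mice (7.01 to 8.97) were above all 6 young ones (6.53 to 6.88). *Zmat3* did not overlap either, at 3.11 to 3.80 against 2.82 to 3.07, a difference of 0.58 (SE 0.22; adjusted p = 0.156), and 2 of 8 genes not overlapping stands beside 4.45% of all genes. *Trp53inp1* differed by 0.91, *Ccng1* by 0.91 and *Aen* by 0.60, with adjusted p between 0.130 and 0.166. *Cdkn1a* reached nearly the same level in both ages, at 5.17 ± 0.55 in young and 5.0 ± 0.48 in old mice (SD, n = 6 each), and the 95% interval of its difference was -0.86 to 0.52. That of *Phlda3* was -0.28 to 1.04, and its difference of 0.38 turned to -0.12 under quantile normalization, -0.04 under normexp correction and -0.11 in the deposited values.

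Leaving out mice of the old irradiated group changed this comparison. How many of all genes were called without them is not given here, so the counts below do not set these genes apart from others. Without mice 4 and 6, 4 genes were called higher in old irradiated mice, *Trp53inp1* (1.28), *Phlda3* (0.79), *Zmat3* (0.77) and *Mdm2* (0.67). Without mice 2, 3 and 5, 2 were called, *Mdm2* (1.84) and *Ccng1* (1.40). *Mdm2* was the gene called both times. The young irradiated mice with high liver markers were kept in these counts; without them and without old irradiated mice 2, 3 and 5, which leaves 3 mice of each age, 0 genes were called, and *Mdm2* differed by 1.74 (adjusted p = 0.196) and *Ccng1* by 1.30 (adjusted p = 0.247).

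No gene of the 8 had a called difference between the responses of the ages. By limma's interaction test 0% of all genes were called, 4191 genes had an unadjusted p below 0.05 and the lowest adjusted p was 0.0607. In simulated data with 200 of 17802 genes changed, that test recovered 5% of log2 changes of 1 and 45% of changes of 2. Of the 8 genes, 3 had an unadjusted p below 0.05, and all 3 responded less in old mice. They were *Rps27l*, with an interaction of -1.11 (SE 0.36; limma adjusted p = 0.129), *Cdkn1a*, with -1.11 (SE 0.44; adjusted p = 0.158), and *Phlda3*, with -1.08 (SE 0.34; adjusted p = 0.127). The value for *Cdkn1a* is that of its downstream probe, and with the mean of its probes the interaction was -0.07. Its upstream probe rose more in old mice (4.36) than in young mice (3.39), from unirradiated levels that were not well above background. The others ran from -0.60 for *Zmat3* to 0.45 for *Mdm2*, with 95% intervals from -1.27 to 0.06 and -0.33 to 1.22. *Ccng1* was closest to equal in both ages, at 0.07 with an interval of -0.65 to 0.80, and it ran from -0.345 to 0.56 over the alternative settings. The median interaction over all genes was -0.24, and relative to it *Rps27l* was at -0.87, *Cdkn1a* at -0.86 and *Phlda3* at -0.84. Without old irradiated mice 2, 3 and 5, the interactions of *Rps27l* (-1.54), *Phlda3* (-1.44) and *Mdm2* (1.09) were called, but the young irradiated mice with high liver markers were kept there. With young irradiated mice 2, 4 and 5 left out as well, *Rps27l* (-1.07, adjusted p = 0.0163) and *Phlda3* (-1.53, adjusted p = 0.0118) were called and *Mdm2* (1.0, adjusted p = 0.0323) was not. Without those young mice alone, 0 were called, with *Rps27l* at -0.63 and *Phlda3* at -1.17. Without old irradiated mice 4 and 6, 0 were called, with *Rps27l* at -0.83, *Phlda3* at -0.67 and *Mdm2* at -0.07. Without old irradiated mouse 3 alone, that of *Rps27l* was called. For these fits without some mice, the share of all genes called is not given here.

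Within the old irradiated group, the genes of the set split the mice in 2 opposite ways. In mice 4 and 6, *Mdm2* was at 8.92 and 8.97 against 7.01 to 7.80 in the other 4 mice, *Ccng1* at 6.60 and 6.69 against 5.15 to 5.61, *Aen* at 6.56 and 6.67 against 5.86 to 6.14, and the upstream *Cdkn1a* probe at 3.17 and 3.29 against 1.04 to 2.11. In the same mice, *Phlda3* was at 6.12 and 6.22 against 7.06 to 7.71, *Trp53inp1* at 5.90 and 5.93 against 6.54 to 7.61, *Rps27l* at 6.61 and 6.74 against 7.07 to 8.0 and *Zmat3* at 3.11 and 3.13 against 3.58 to 3.80. The downstream *Cdkn1a* probe did not split them (4.88 and 5.42 against 4.31 to 5.54). On the scale of probes above background on all arrays, *Mdm2*, *Ccng1*, *Aen*, *Phlda3* and *Trp53inp1* still split the mice in the same directions, while *Rps27l* and *Zmat3* overlapped. Other transcripts stood apart with them: red cell precursor markers had a mean level of 7.70 and 7.80 against 3.67 to 4.83, monocyte markers 4.12 and 4.18 against 6.10 to 6.81, NK cell markers 3.39 and 3.47 against 4.17 to 4.87, and T cell markers 6.57 and 6.73 against 5.40 to 5.99. These are 2 mice noticed for their values, so no test was made, and the part of signal and cell makeup was not tested.

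**Figure D4:**
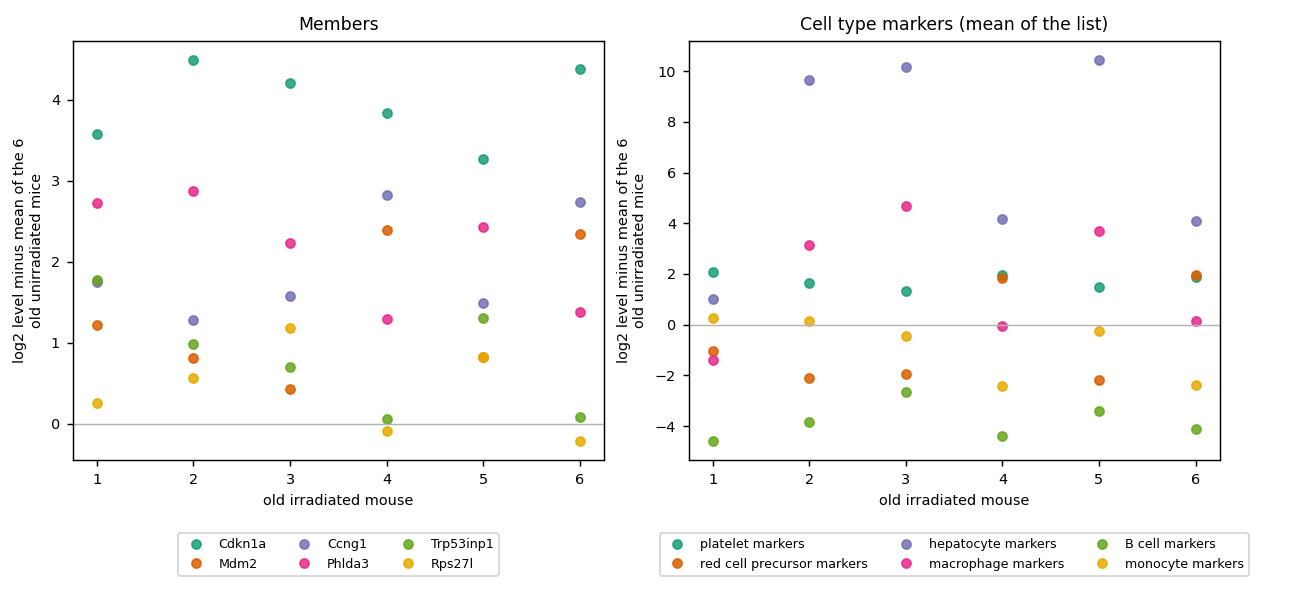
Log2 level in each of the 6 old irradiated mice (horizontal axis) minus the mean of the 6 old unirradiated mice, for 6 genes of the set (left) and for the mean of each cell type marker list (right). *Mdm2*, *Ccng1* and the red cell precursor markers are higher in mice 4 and 6 than in the other 4, and *Phlda3*, *Trp53inp1*, *Rps27l* and the monocyte markers are lower.

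The other genes of the p53 pathway were taken by role, and each count stands beside the 14.3% of all genes called higher and 21.1% called lower in young mice and the 7.49% and 17.4% in old mice. Of 11 tested targets that act in cell death, 6 rose and 0 fell in young mice, and in old mice 0 rose and 1 fell, with medians of 0.88 and 0.35. The interaction test called 0 of these 11 genes, so the 2 counts do not by themselves show that the ages differ. The brightest of them were *Bax*, whose protein opens the mitochondrial membrane (1.40, called, in young and 0.62, not called, in old mice), *Bbc3*, which encodes Puma (1.41, called, and 0.80, not called), and *Triap1* (0.63 and 0.41, neither called). Of 7 tested targets for DNA repair and nucleotide supply, 1 rose and 2 fell in young mice and 0 rose and 2 fell in old mice, with medians of -0.44 and -0.51. Among its brightest genes *Gadd45a*, a stress sensor (-0.96 and -0.03), and *Xpc*, which finds bulky DNA lesions (-0.29 and 0.01), were not called, and *Pcna*, the sliding clamp of replication, fell by 1.26 in old mice and showed -0.44, not called, in young mice. Of 24 other targets in arrest, feedback and metabolism, 6 rose and 3 fell in young and 4 rose and 4 fell in old mice, with medians of 0.11 and -0.11. *Ndrg1*, a stress-responsive gene, rose in both ages (2.01 and 1.74), while *Cd82*, a tetraspanin (-0.30 and 0.12), and *Ephx1*, an epoxide hydrolase (1.05 and -0.36), were not called.

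The genes upstream of the set mostly fell or did not pass the test. Of 18 tested genes for p53 and its regulators, 2 rose and 9 fell in young and 1 rose and 7 fell in old mice, with medians of -0.61 and -0.85. *Rpl23*, *Rpl11* and *Rpl5*, ribosomal proteins that bind Mdm2, differed by -0.52, -0.63 and -0.93 in young mice, all called, and by -0.48, -1.05 and -0.96 in old mice, where *Rpl11* was called. *Trp53* itself, named after its values were seen, fell by 1.19 in young (adjusted p = 0.00118) and by 1.82 in old mice (adjusted p = 0.00154), in the same mice in which its targets above rose. B cell markers, T cell markers in young mice and these genes fell together, and the part of fewer lymphocytes was not tested.

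Downstream of p21, the cyclins and kinases that it binds were mixed, with 2 rising and 3 falling of 9 in young and 2 rising and 2 falling in old mice. *Ccnd3*, cyclin D3, rose by 1.28 and 1.0, and *Cdk4* showed -0.24 and -0.08 and was not called. Of 22 tested genes of S and M phase, 0 rose in either age, 8 fell in young (against 21.1% of all genes) and 5 in old mice (against 17.4%), with medians of -0.68 and -0.67. *Nusap1*, a spindle protein (-2.46, called, and -1.46, not called), and *Ube2c*, which acts at the exit from mitosis (-1.32, called, and -0.80, not called), were the brightest, and *Mki67*, the proliferation marker, was not called (-0.15 and 0.13). Of 13 tested paralogs of the set, 2 rose and 5 fell in young and 1 rose and 4 fell in old mice. Besides *Rps27*, the brightest were *Isg20* (-0.37 and 0.03) and *Cdkn1b*, the p27 inhibitor related to p21 (-0.55 and -0.20), and neither was called. *Sesn1*, named after its values were seen, fell by 0.90 and 1.96, where its relative *Sesn2* had not changed enough to enter the test.

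**Figure D5:**
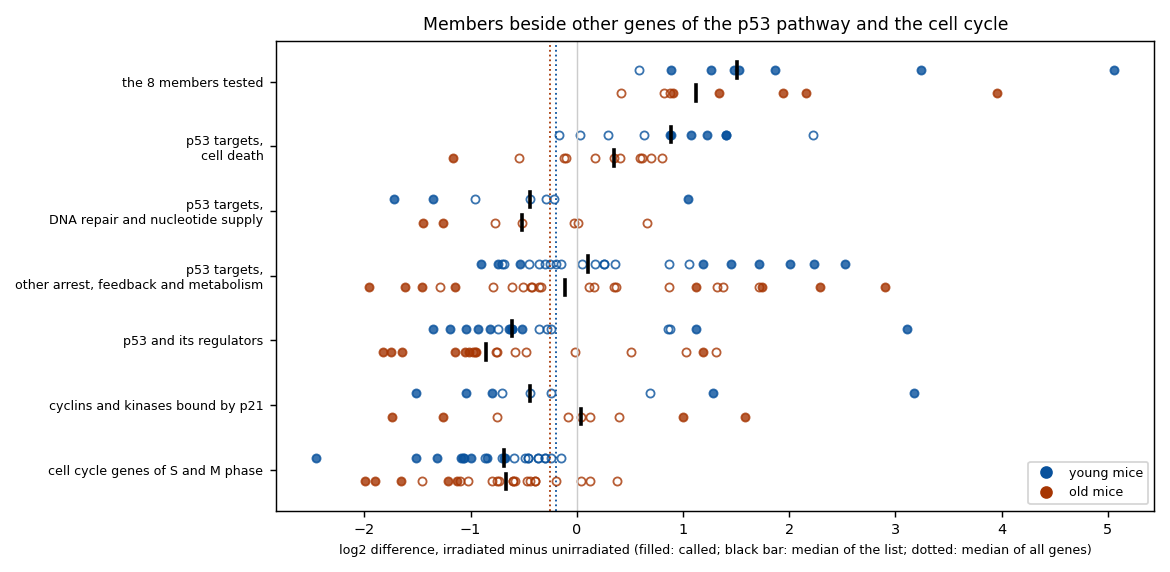
Log2 difference, irradiated minus unirradiated, of every tested gene of the set and of the pathway lists named on the vertical axis, for young and old mice; filled points were called, black bars are list medians and dotted lines the median of all genes. The set has the highest median of the lists shown in both ages (1.5 and 1.12), and the list of p53 and its regulators has medians of -0.61 and -0.85. The set and the lists were chosen with earlier results of these data known.

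Genes whose levels followed the set most closely over the 24 arrays were ranked by the root mean square difference of centered log2 values, a measure of likeness with no test. For *Cdkn1a* they were *Rhoc* (1.04), *Serpinb2* (1.07) and *Apcdd1* (1.09). For *Phlda3* they were *Slc22a23* (0.336), *Trpc6* (0.396) and *Nyx* (0.417). For *Mdm2* they were *Tuba4a* (0.242), *St7* (0.269) and *Atf4* (0.305), and none of the 3 lists shared a gene. *Phlda3* was the 5th nearest gene to *Cdkn1a*, at 1.15.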

How the data were processed

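RNA of 24 mice was hybridized to 1-color Agilent mouse arrays. The intensity values that the authors deposited, 1 scanner table per array, are background-corrected signals from Agilent Feature Extraction 12.0.2 (per the submitters' processing notes), not scaled between arrays. The log2 values in the table that the authors deposited (17190 probes) were used as an alternative; their centering is not stated, and their array medians were 5.77 to 6.73.

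Spots marked non-uniform were set to missing, and the median over 43020 non-control spots was subtracted from each array's log2 signals. Probes that failed on uniformity or on signal over background in 25% of arrays or more were dropped, which left 24130. Of these, probes past 1.5-fold from their median in 5 arrays (20%) or more were kept, and each gene took the brightest of its kept probes (17802 genes tested). Tests used limma 3.58.1 in R 4.3.3, with two-sided tests on 12 arrays per comparison (24 for the interaction), with exact permutations of single genes. Scripts were tested on simulated data with 200 of 17802 genes changed. Of log2 changes of 1, the radiation test recovered 46.5% in young and 0% in old mice. The age test recovered 60.5% before and 1% after irradiation, and the interaction test 5%. With so few genes changed, these shares do not carry over directly to the real data. A gene that was not called is not thereby shown to be unchanged. Labels give 1 mouse per array; no depth of counts applies, and the number of arrays limits precision. Probe positions (mm9) came from the scanner tables and promoters from RefSeq. Exons and introns around the probes were not analysed here.

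The 10 genes, the pathway lists and the cell type markers were chosen with earlier results of these data known. Genes outside the set were named by rule: the 3 brightest tested genes of each list, and the 3 nearest patterns for *Cdkn1a*, *Phlda3* and *Mdm2*; *Trp53* and *Sesn1* were named outside this rule. Alternatives covered scaling, background correction, filters, probe choice, variance model, blocks for replicate number and slide, and leaving out arrays. Those that left out old irradiated mice 4 and 6 or 2, 3 and 5 or young irradiated mice 2, 4 and 5, merged the similar pairs, or scaled to each array's own bright spots were added after seeing the data.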

Additional observations from a re-analysis of the deposited data

Results flagged for a closer look

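In 1 of the 40 groups of 6 mice of 10 probes (1 for each tested gene and for *Sesn2*, and the upstream probe of *Cdkn1a*), 1 mouse lay far from the rest. *Aen* (A_55_P2145804) in old unirradiated mouse 4 was at 4.82, and the nearest mouse of its group was at 5.32. The gap was 0.692 of the range of the group, above Dixon's 95% critical value for 6 samples, which chance exceeds in about 1 in 20 groups. Without this mouse the rise of *Aen* after irradiation in old mice was 0.81 in place of 0.91 and was still called.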

How the results depend on the processing

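The number of genes of the set called in young mice (7) and in old mice (5) after irradiation was most sensitive to normexp background correction, with 4 and 1, although the differences of the genes that lost the call were larger there. Before irradiation, the count of 7 higher in old mice became 1 with the 75th percentile, with probes above background on all arrays, with each array's own bright spots and in the deposited log2 values, 2 under quantile normalization, 0 under normexp and 4 in 1 fit of all 24 arrays. The count for old against young irradiated mice (0) became 4 in 1 fit of all arrays, 1 with a random block for slide, 2 without old irradiated mice 2, 3 and 5, and 4 without mice 4 and 6; that of the interaction (0) became 3 without mice 2, 3 and 5, and 2 without these and young irradiated mice 2, 4 and 5. Leaving out 1 mouse at a time gave 7 to 7 in young mice, 5 to 6 in old mice, 6 to 8 before irradiation, 0 to 0 after it and 0 to 1 for the interaction (*Rps27l*, without old irradiated mouse 3). Counting each very similar pair as 1 sample gave 7, 6, 6, 0 and 0. Apart from normexp, the shares of all genes called under these settings are not given here, so the counts do not set these genes apart from others. Signs turned for *Phlda3* between irradiated ages (-0.12 quantile, -0.0386 normexp, -0.11 deposited), *Mdm2* between unirradiated ages (-0.0142 deposited), *Cdkn1a* between irradiated ages (0.30 with the mean of its probes), *Cdkn1a* and *Rps27l* between irradiated ages (0.20 and 0.15 without young irradiated mice 2, 4 and 5), *Cdkn1a* and *Phlda3* between irradiated ages (0.17 and -0.0664 without these and old irradiated mice 2, 3 and 5), the interactions of *Trp53inp1* and *Ccng1* (-0.14 and -0.0233 without young irradiated mice 2, 4 and 5) and of *Trp53inp1* (-0.32 without both sets of mice), *Rps27l* in old mice (-0.0151 without mice 2, 3 and 5) and the interactions of *Aen* (0.0514, own bright spots), *Mdm2* and *Ccng1* (-0.0687 and -0.345 without mice 4 and 6) and, leaving out 1 mouse at a time, *Ccng1* (from -0.10 without old irradiated mouse 4 to 0.20 without mouse 2). The cause of these changes was not tested.

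The labels number the mice within a group but do not pair them, and deviations of same-numbered mice correlated between -0.60 and 0.58. With the replicate number as a block the count after irradiation in old mice was 3 (without *Aen* and *Mdm2*), and it was 7 in young mice, 7 before irradiation, 0 after irradiation and 0 for the interaction.

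Low signal of the probes limits what can be seen of *Eda2r* on all arrays and of *Cdkn1a* in unirradiated mice, above all with its upstream probe.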
